A study of Mus musculus with 12 samples.

Results

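Cathepsins and other lysosome proteins were followed in mouse bone marrow leukemic cells from adult animals that carry MA9, the leukemia oncogene in which MLL is joined to AF9. The rule named 10 genes by symbol: the proteases *Ctsb*, *Ctsd*, *Ctsl*, *Ctss*, *Ctsz* and *Ctsc*, the membrane glycoproteins *Lamp1*, *Lamp2* and *Gpnmb*, and the lysozyme *Lyz2*. Of these, 9 had a row among the 25263 symbols of the expression table, and *Ctsd* had none. All 9 averaged at least 1 FPKM (a count of fragments divided by transcript length and library size) over the 12 libraries and were tested with 13169 symbols in all. The 4 groups of 3 libraries were WT-GFP (wild type Hoxa cluster, strain C57BL/6, control GFP retrovirus), WT-Cre (the same genotype and strain with a Cre retrovirus), Hoxa-flox (Hoxa cluster floxed, strain C57BL/6J, control virus) and Hoxa-del (the floxed cells after Cre). Cells of every group were grown overnight in cytokines and sorted for high GFP, and every group carried MA9 and a retrovirus. The labels do not say how many leukemias, animals or cultures the libraries came from, so the p-values cover just the scatter among these libraries, and that may be technical. Genotype, strain and leukemia differ together, and their parts in a difference between floxed and WT cells cannot be told apart.

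Lysosomes are acidic organelles in which hydrolases break down material taken up from outside or delivered by autophagy. Cathepsins are their main proteases, made as inactive precursors and activated at low pH, and LAMP proteins coat the inside of the lysosomal membrane. Monocytes and macrophages carry many lysosomes, so cathepsin S, lysozyme and GPNMB are commonly read as genes of maturing myeloid cells, while LAMP1 and cathepsin Z are found in most cell types. Transcription factors of the TFEB and MITF family bind the E-box CACGTG in promoters of many lysosome genes.

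The members lie on 9 chromosomes of GRCm38 (GENCODE M21 coordinates, matched by symbol). *Ctsb* spans 63122462 to 63145923 of chromosome 14, *Ctsl* 64359337 to 64370890 of chromosome 13, *Ctss* 95526786 to 95556403 of chromosome 3, *Ctsz* 174427493 to 174439039 of chromosome 2 and *Ctsc* 88278085 to 88310888 of chromosome 7. *Lamp1* spans 13159161 to 13175338 of chromosome 8, *Lamp2* 38401357 to 38456454 of chromosome X and *Lyz2* 117277331 to 117282321 of chromosome 10. *Gpnmb* (49036546 to 49070929) is on chromosome 6, the chromosome of the floxed Hoxa cluster, and ends 3085 kb before it. *Ctsd* spans 142375911 to 142388038 of chromosome 7. Its neighbour *Ifitm10* starts 2157 bases beyond the end of *Ctsd* on the same strand, and the annotation has a readthrough gene, Gm49369, that overlaps *Ctsd* and *Ifitm10*.

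The promoters of the members held unequal numbers of E-boxes. The RefSeq promoter table (GRCm38.p6, 250 bases before to 50 after a start) held 9 of the 10 members, all but *Ctsb*. The E-box CACGTG, the same on both strands, occurred in 3 of these 9 promoters, in 22.7% of 154 promoters of the other lysosome genes described further on and in 7.15% of all 32851 promoters in the table. *Lamp1* had 4, a number reached by 8 promoters in all, *Ctsd* had 2 and *Ctsl* had 1. The 3 sequences are shown because they hold the lysosomal E-box, in capitals, 5′ to 3′ on the strand of the gene.
Lamp1, chr8:13158911-13159210, plus strand: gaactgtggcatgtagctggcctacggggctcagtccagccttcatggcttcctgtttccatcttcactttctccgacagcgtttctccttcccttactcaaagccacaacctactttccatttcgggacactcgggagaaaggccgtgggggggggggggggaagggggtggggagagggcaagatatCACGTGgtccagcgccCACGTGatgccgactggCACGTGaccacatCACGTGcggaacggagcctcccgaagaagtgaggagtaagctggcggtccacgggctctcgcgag
Ctsd, chr7:142387778-142388077, minus strand: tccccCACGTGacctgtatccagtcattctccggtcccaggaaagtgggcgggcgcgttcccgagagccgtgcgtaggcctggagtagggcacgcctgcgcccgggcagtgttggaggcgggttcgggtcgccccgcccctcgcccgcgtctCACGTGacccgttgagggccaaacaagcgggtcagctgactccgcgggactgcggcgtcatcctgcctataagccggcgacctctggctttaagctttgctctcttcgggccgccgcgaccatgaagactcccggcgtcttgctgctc
Ctsl, chr13:64370471-64370770, minus strand: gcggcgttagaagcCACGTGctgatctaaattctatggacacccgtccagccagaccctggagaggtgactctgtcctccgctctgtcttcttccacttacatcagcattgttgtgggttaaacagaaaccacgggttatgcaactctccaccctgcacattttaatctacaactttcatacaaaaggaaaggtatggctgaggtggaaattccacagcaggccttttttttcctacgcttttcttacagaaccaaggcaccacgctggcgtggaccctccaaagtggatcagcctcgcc
In *Lamp1* the 4 E-boxes start 61, 45, 28 and 15 bases before the RefSeq start.

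*Gpnmb* and *Ctss*, 2 of the 3 members that differed most between the genotypes, had no CACGTG in this window. Other motifs were searched on both strands: GAGGAA, the core bound by the myeloid factor PU.1 (28.3% of all promoters), CATGTG, a core of the MITF site (14.2%), and TGANTCA, the AP-1 site (7.81%). In the sequences below their matches are in capitals. No motif searched overlapped another match in them.
Gpnmb, chr6:49036268-49036567, plus strand: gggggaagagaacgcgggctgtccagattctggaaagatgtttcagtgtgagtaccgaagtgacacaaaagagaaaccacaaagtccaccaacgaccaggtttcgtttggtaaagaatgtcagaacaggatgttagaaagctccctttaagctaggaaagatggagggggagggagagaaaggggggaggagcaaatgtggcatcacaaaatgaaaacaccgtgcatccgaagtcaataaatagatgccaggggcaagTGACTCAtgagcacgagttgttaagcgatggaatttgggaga
Ctss, chr3:95526536-95526835, plus strand: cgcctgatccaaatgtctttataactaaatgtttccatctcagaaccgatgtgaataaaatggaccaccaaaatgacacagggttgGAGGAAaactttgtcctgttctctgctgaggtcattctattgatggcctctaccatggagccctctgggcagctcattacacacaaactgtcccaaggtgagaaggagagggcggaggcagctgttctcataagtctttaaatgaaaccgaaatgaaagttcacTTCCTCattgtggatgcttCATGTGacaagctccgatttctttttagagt
*Gpnmb* had 1 AP-1 match, starting 9 bases after the start, and *Ctss* had 2 GAGGAA matches and 1 CATGTG match. GAGGAA also occurred 2 times in *Ctsc* and 1 time in *Lamp2*. It was thus in 3 of the 9 promoters (33.3%), near the 28.3% of all promoters. *Lyz2* and *Ctsz* had no match to any of the 4 motifs. A match describes the letters of these windows and does not show that a factor binds there.

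The floxed libraries did not form uniform groups, and the members followed this. On the first principal component of the 6 floxed libraries (64.4% of their variance) Hoxa-flox 1, Hoxa-flox 2 and Hoxa-del 2 stood on one side and Hoxa-flox 3, Hoxa-del 1 and Hoxa-del 3 on the other. *Mki67*, the proliferation marker Ki-67, read 14.9 to 17.8 FPKM in the first 3 and 84.6 to 93.2 in the others, so they are called the low-Mki67 and the high-Mki67 set. The labels name no batch, and 2 of 3 Hoxa-flox libraries are in one set and 2 of 3 Hoxa-del libraries in the other. *Hoxa9* of the targeted cluster ranged from 83.5 to 119 FPKM in Hoxa-del, below the 217 to 257 of Hoxa-flox and the 152 to 183 of the WT libraries. Depth is unknown: the values are no counts, and only 38.2% to 45.0% of low values fell on steps shared with WT-GFP 1. Genes varied more among floxed libraries: their SD on the log2(FPKM + 1) scale had a median of 0.116 (WT-GFP), 0.124 (WT-Cre), 0.290 (Hoxa-flox) and 0.357 (Hoxa-del).

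**Figure D1:**
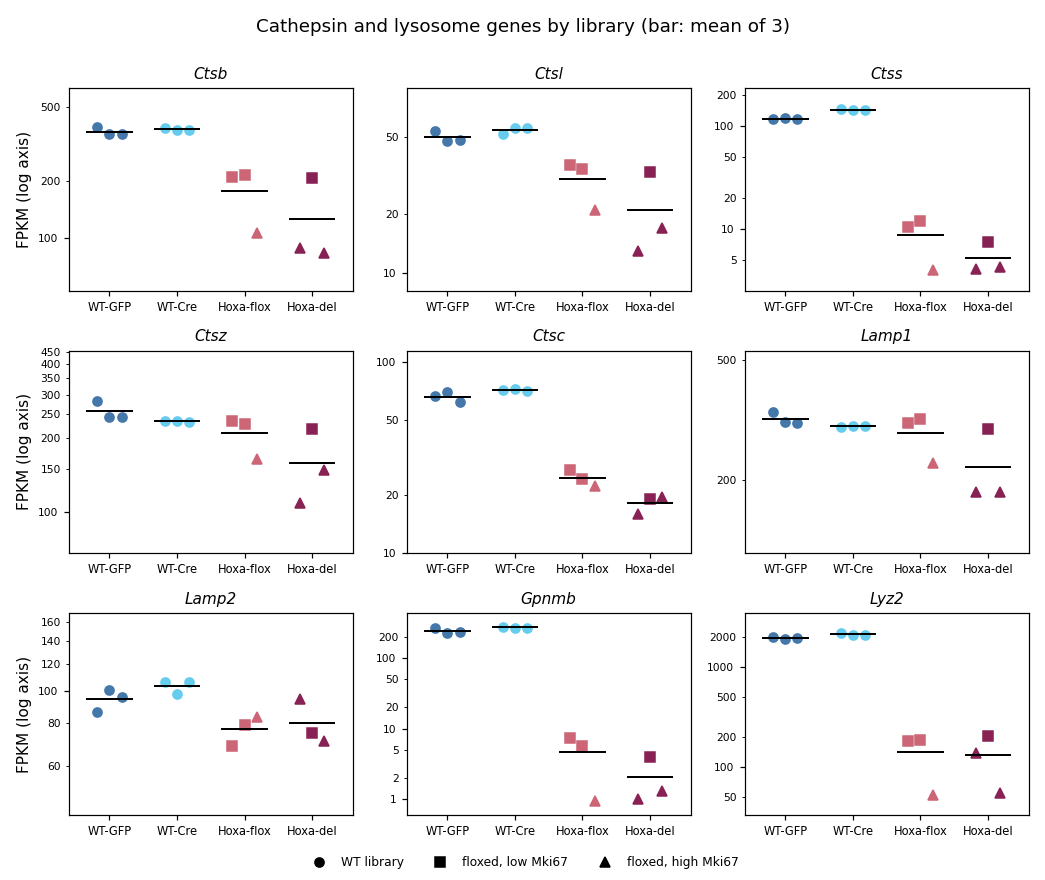
FPKM on a log axis of the 9 members with a row, by group; each point is a library, circles are WT libraries, squares and triangles the floxed libraries with low and high Mki67, and bars the means of 3. The floxed points lie below all WT points for Ctsb, Ctsl, Ctss, Ctsc, Gpnmb and Lyz2, and overlap them for Ctsz, Lamp1 and Lamp2.

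In the floxed leukemia with the control virus, 5 of the 9 members were lower than in the WT leukemia, and 0 were higher. *Gpnmb* differed most, with 1.93% of its WT level left, followed by *Lyz2* (7.21%), *Ctss* (7.41%), *Ctsc* (37.5%) and *Ctsb* (48.3%). Over all genes tested, 13.5% were called lower in this comparison, and 26.8% in either direction (limma, adjusted p under 0.05). In 8 of the 9 members every Hoxa-flox library lay below every WT-GFP library, all but *Lamp1*; of all genes 23.3% were lower and 23.9% higher in this way. The median change of the members was -1.11 on the log2(FPKM + 1) scale, against 0.00 for all genes. All changes and SEs below are on this scale, which understates the change of low genes. In such bulk libraries fewer cells of a type and less RNA per cell cannot be told apart.

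*Gpnmb* encodes a membrane glycoprotein of melanosomes and lysosomes that rises in macrophages under lysosomal stress. The WT-GFP libraries read 263, 224 and 231 FPKM, those of Hoxa-flox 7.28, 5.65 and 0.952. The lowest WT library stood far above the highest floxed one. The change was -5.66 (SE 0.47, adjusted p = 7.11e-06, limma), the 7th largest fall among all genes tested. In the Cre groups *Gpnmb* read 272, 268 and 269 FPKM in WT-Cre and 1.003, 3.92 and 1.31 in Hoxa-del (change -6.58, SE 0.47, adjusted p = 2.13e-06, limma).

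*Lyz2* encodes lysozyme M, which cleaves bacterial cell walls and is widely used as a myeloid marker. It was the highest member in WT cells, at 1968, 1896 and 1921 FPKM in WT-GFP. In Hoxa-flox it read 182, 183 and 51.8 FPKM, and the third library stood apart from the other two. The change was -3.99 (SE 0.51, adjusted p = 0.000177, limma). With Cre the libraries read 2173, 2097 and 2102 FPKM in WT-Cre and 136, 202 and 54.7 in Hoxa-del, again without overlap (change -4.20, SE 0.51, adjusted p = 0.000125, limma). *Lyz1*, its close relative on the same chromosome, averaged under 1 FPKM and was not tested. Reads that fit both genes could be split between the 2 rows.

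*Ctss* encodes cathepsin S, which trims the invariant chain of MHC class II and stays active at neutral pH. It read 118, 120 and 118 FPKM in WT-GFP against 10.3, 12.1 and 3.97 in Hoxa-flox. With Cre it read 146, 143 and 145 in WT-Cre and 4.06, 7.44 and 4.24 in Hoxa-del. In both comparisons the floxed libraries lay more than the whole spread of the WT libraries below them. The change was -3.73 with the control virus (SE 0.31, adjusted p = 7.57e-06, limma) and -4.58 with Cre (SE 0.31, adjusted p = 1.41e-06, limma).

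*Ctsc* encodes cathepsin C, the dipeptidyl peptidase that activates the serine proteases of neutrophil granules. The WT-GFP libraries read 66.1, 69.8 and 61.8 FPKM, those of Hoxa-flox 27.1, 24.5 and 22.5. In WT-Cre it read 71.1, 71.9 and 70.8, and in Hoxa-del 15.9, 19.1 and 19.7. Its floxed libraries were the most even of the 5 lower members, with coefficients of variation of 9.48% (Hoxa-flox) and 11.1% (Hoxa-del). The changes were -1.38 (SE 0.12, adjusted p = 1.04e-05, limma) and -1.91 (SE 0.12, adjusted p = 7.5e-07, limma).

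*Ctsb* and *Ctsl* encode the broadly expressed cysteine proteases cathepsin B and L. *Ctsb* read 392, 356 and 356 FPKM in the WT-GFP libraries against 210.5, 217 and 106 in those of Hoxa-flox. The WT-Cre libraries read 387, 378 and 375, those of Hoxa-del 87.8, 208 and 82.9. It was lower in Hoxa-flox (-1.11, SE 0.35, adjusted p = 0.0348, limma) and in Hoxa-del against WT-Cre (-1.72, SE 0.35, adjusted p = 0.00383, limma). The call against WT-GFP did not hold when WT-GFP 1 was left out (adjusted p = 0.0963), nor without WT-GFP 2 (0.0845), WT-GFP 3 (0.0840) or Hoxa-flox 3 (0.0907, limma), nor without the filter on low values (0.0637). *Ctsl* went from 53.5, 48.0 and 48.2 FPKM in WT-GFP to 36.0, 34.2 and 21.1 in Hoxa-flox. Its groups did not overlap, but the change of -0.73 (SE 0.29) missed the threshold (adjusted p = 0.0878, limma). *Ctsl* passed in a fit of these 2 groups alone (adjusted p = 0.0462) and with array weights (0.000174). With Cre it read 51.6, 55.7 and 55.7 in WT-Cre and 12.9, 33.2 and 17.1 in Hoxa-del, and the change of -1.43 passed (SE 0.29, adjusted p = 0.00392, limma).

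*Ctsz*, *Lamp1* and *Lamp2* passed in neither comparison between the genotypes. *Ctsz* encodes cathepsin Z, a carboxypeptidase. It read 284, 243 and 244 FPKM in WT-GFP, 234, 229 and 165 for Hoxa-flox, 235, 234 and 232 for WT-Cre and 109, 219 and 149 for Hoxa-del. Its mean was 257 ± 23.4 FPKM for WT-GFP and 209.5 ± 38.9 for Hoxa-flox (SD, n = 3 libraries each), and 234 ± 1.54 and 159 ± 55.4 in WT-Cre and Hoxa-del. Its change was -0.31 with the control virus (95% interval -0.82 to 0.20) and -0.61 with Cre (-1.12 to -0.10; adjusted p = 0.0733, limma). *Lamp1* read 336, 312 and 309 FPKM in WT-GFP, 309.5, 319.9 and 228 for Hoxa-flox, 300.1, 302 and 302 for WT-Cre and 183, 296 and 183 for Hoxa-del. It averaged 319 ± 15.2 and 286 ± 50.2 FPKM under the control virus, and 301 ± 1.13 and 221 ± 65.1 under Cre (same groups, SD, n = 3). Its change was -0.17 (95% interval -0.62 to 0.28) and -0.49 (-0.94 to -0.04; adjusted p = 0.103, limma). *Lamp2*, whose protein takes part in chaperone-mediated autophagy, read 86.7, 100.3 and 95.7 FPKM in WT-GFP, 68.4, 79.4 and 83.5 for Hoxa-flox, 106, 97.9 and 106 for WT-Cre and 94.6, 75.1 and 70.9 for Hoxa-del. It averaged 94.2 ± 6.94 and 77.1 ± 7.82 FPKM, and 103 ± 4.78 and 80.2 ± 12.7 (SD, n = 3). Its change was -0.29 (95% interval -0.60 to 0.02) and -0.37 (-0.68 to -0.06; adjusted p = 0.0728, limma). With the control virus the adjusted p was 0.368 for *Ctsz*, 0.585 for *Lamp1* and 0.159 for *Lamp2* (limma). The intervals cover falls of at most 0.94 for *Lamp1*, 1.12 for *Ctsz* and 0.68 for *Lamp2*, while the smallest fall in the interval of *Gpnmb* was 4.62. Without Hoxa-del 2 both *Ctsz* (-0.87, adjusted p = 0.00557) and *Lamp1* (-0.72, adjusted p = 0.00547, limma) passed against WT-Cre. *Lamp2* passed without Hoxa-del 1 (-0.50, adjusted p = 0.0181, limma).

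**Figure D2:**
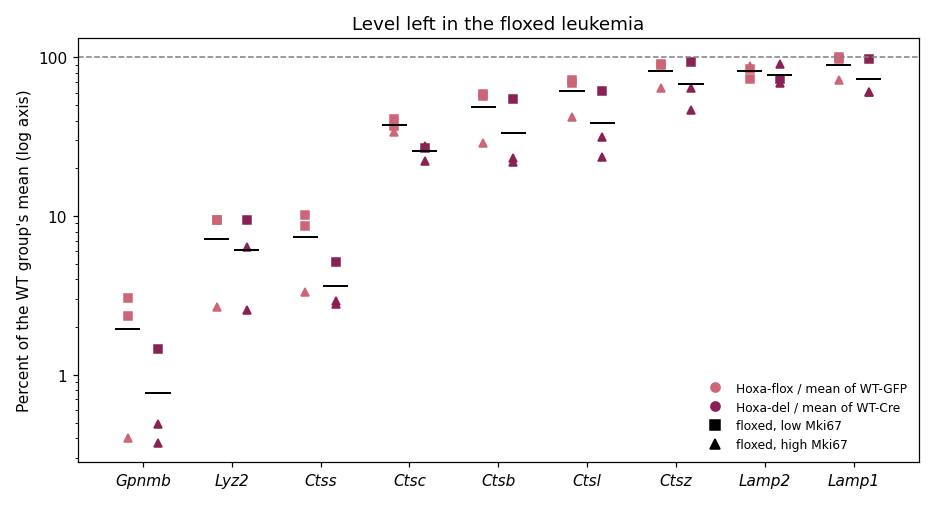
Level of each member in the floxed libraries as a percentage of the mean of the WT group with the same virus, on a log axis; points are libraries, bars the means of 3 and the dashed line 100%. The means run from 1.93% (Gpnmb) to 89.6% (Lamp1) in Hoxa-flox and from 0.771% (Gpnmb) to 77.6% (Lamp2) in Hoxa-del.

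With Cre in both genotypes, 6 of the 9 members were lower in Hoxa-del than in WT-Cre and 0 were higher, against 14.2% of all genes called lower and 27.2% in either direction. All 9 members were lower without overlap, as were 20.7% of all genes, with 20.7% higher. These 6 were *Gpnmb*, *Ctss*, *Lyz2*, *Ctsc*, *Ctsb* and *Ctsl*, with 0.771%, 3.63%, 6.16%, 25.6%, 33.2% and 38.7% of the WT-Cre level left. The median change of the members was -1.72. The libraries of this comparison are others than those of the comparison with the control virus. Both comparisons set the same genotypes and strains against each other and share a pooled spread, so they are not independent. The order of the members by level changed with the genotype. In WT-GFP the order was *Lyz2*, *Ctsb*, *Lamp1*, *Ctsz*, *Gpnmb*, *Ctss*, *Lamp2*, *Ctsc* and *Ctsl*, per length, and only *Ctsz* and *Gpnmb* overlapped among neighbours. In Hoxa-flox *Lamp1* was highest, followed by *Ctsz*, *Ctsb*, *Lyz2*, *Lamp2*, *Ctsl*, *Ctsc*, *Ctss* and *Gpnmb*, and all neighbours overlapped except *Lamp2* with *Ctsl* and *Ctsc* with *Ctss*. The summed level of the 9 members was 3369 to 3743 FPKM in the 6 WT libraries and 583 to 1105 in the 6 floxed libraries. *Lyz2* made up 55.2% to 58.1% of that sum in WT cells and 7.59% to 21.1% in floxed cells.

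Within the floxed cells the members differed between the library sets. For 7 of the 9 members every low-Mki67 library lay above every high-Mki67 library, whatever the virus; of all genes tested 31.7% showed this and 23.1% the opposite. Since the same values define the sets, this is a description with no test. *Gpnmb* averaged 5.61 FPKM in the low-Mki67 set and 1.09 in the high-Mki67 set, a ratio of 5.15. The ratio was 2.43 for *Ctss*, 2.34 for *Lyz2*, 2.30 for *Ctsb*, 2.02 for *Ctsl*, 1.61 for *Ctsz* and 1.56 for *Lamp1*. *Ctsc* (1.22) and *Lamp2* (0.895) overlapped between the sets. In the low-Mki67 set *Lamp1* read 296 to 319.9 FPKM, which overlapped the 300.1 to 336 of the 6 WT libraries. In the high-Mki67 set it read 183 to 228, below all of them. Both sets lay below all WT libraries for *Ctsb*, *Ctsl*, *Ctss*, *Ctsc*, *Gpnmb* and *Lyz2*. The change of *Gpnmb* against WT-GFP was -5.01 over the low-Mki67 and -6.94 over the high-Mki67 Hoxa-flox libraries, and for *Ctsb* it was -0.78 and -1.78.

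When Cre acted on the floxed cluster, 0 of the 9 members passed the test, with 1 at an unadjusted p under 0.05 (limma). *Hoxa9* of this cluster still read 83.5 to 119 FPKM in Hoxa-del, so its expression was lowered and not absent. Over all genes 0.0304% were called in either direction and 0.0228% lower. The changes of the members had a median of -0.44, against -0.06 for all genes, and adjusted p between 0.729 and 0.969 (limma). *Ctsc* was the 1 member whose groups did not overlap (-0.42, SE 0.12, adjusted p = 0.729, limma); of all genes 4.14% were lower and 2.25% higher without overlap. The libraries of the other 8 overlapped. *Ctsl* (-0.95, adjusted p = 0.0443) and *Lamp1* (-0.62, adjusted p = 0.0463, limma) passed without Hoxa-del 2, which leaves 2 high-Mki67 libraries of Hoxa-del against 2 low-Mki67 and 1 high-Mki67 library of Hoxa-flox. With array weights 8 members, all but *Lamp2*, were called lower; these weights were 0.097 for Hoxa-flox 3 and 0.088 for Hoxa-del 2, so that fit gave most weight to libraries of different sets.

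Compared within a set, the changes with Cre were closer to 0 than over all 6 libraries for every member but *Lyz2*. *Ctsb* changed by -0.04 in the low-Mki67 set (1 Hoxa-del against 2 Hoxa-flox libraries) and by -0.31 in the high-Mki67 set (2 against 1), against -0.56 over all 6 libraries. *Gpnmb* differed by -0.59 and 0.14, *Ctss* by -0.53 and 0.05, and *Lyz2* by 0.15 and 0.72. *Ctsc* gave -0.41 and -0.33, close to its value of -0.42 over all libraries. The median over the 9 members was -0.08 in the low-Mki67 set and -0.31 in the high-Mki67 set. These values rest on 3 libraries each and have no test of their own. With the set as a term in the fit 0 members passed, and the change of *Lyz2* turned from -0.07 to 0.44. The sets were drawn from the values of these same libraries, so this fit is no separate test. They are also unbalanced between Hoxa-flox and Hoxa-del. For members that differ between the sets, a shift from the pooled to the within-set change is built into that imbalance.

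**Figure D3:**
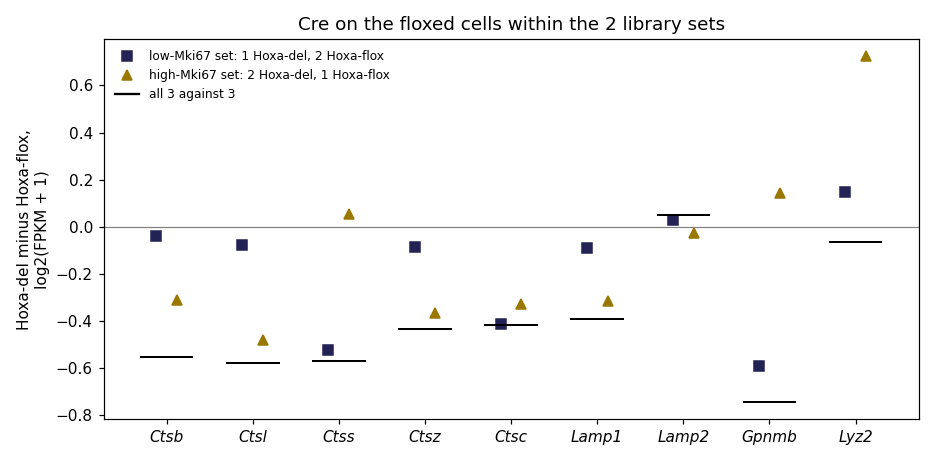
Difference between Hoxa-del and Hoxa-flox on the log2(FPKM + 1) scale for each member; squares are the low-Mki67 set, triangles the high-Mki67 set and bars the value over all 6 libraries. The bars lie below both points for every member but Lamp2, and the 3 values of Ctsc lie between -0.42 and -0.33.

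In WT cells, where Cre has no floxed cluster to act on, 0 of the 9 members passed, with 0 at an unadjusted p under 0.05 (limma) and 0.0152% of all genes called. The differences were small: *Ctss* averaged 119 ± 0.839 FPKM in the WT-GFP and 144 ± 1.63 in the WT-Cre libraries (SD, n = 3), a change of 0.28 (SE 0.31), the largest of the members in WT cells. For 4 members (*Ctss*, *Ctsc*, *Gpnmb* and *Lyz2*) every WT-Cre library lay above every WT-GFP library, as for 9.31% of all genes. For *Ctsz* and *Lamp1* every one lay below, as for 16.3% of all genes. The spread in the test is pooled over all 4 groups; in a fit of the WT libraries alone 0 members passed as well. The difference between the change with Cre in floxed and in WT cells had a median of -0.53 over the members and passed for 0 of 9, with 1 at an unadjusted p under 0.05 (*Ctsc*, -0.53, SE 0.17, limma), against 0.00759% of all genes called. Its WT-Cre libraries all lay above its WT-GFP libraries, and its Hoxa-del libraries all below its Hoxa-flox libraries. With array weights the change of 8 members was called more negative in the floxed cells.

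Neither *Ctsd* nor the readthrough gene Gm49369 had a row, so the row of *Ifitm10*, the gene next to *Ctsd*, is described for itself. The WT-GFP libraries held 918, 807 and 819 FPKM and those of WT-Cre 864, 887 and 865. The Hoxa-flox libraries held 459, 455 and 275, and those of Hoxa-del 202, 515 and 231. In every library *Ifitm10* read above each of the 5 cathepsins with a row, and like *Ctsb* it was higher in the low-Mki67 set (476 FPKM) than in the high-Mki67 set (236). The change was -1.13 in Hoxa-flox against WT-GFP (SE 0.32, adjusted p = 0.0237, limma) and -1.59 in Hoxa-del against WT-Cre (SE 0.32, adjusted p = 0.00397, limma). Whether this row holds reads of *Ctsd* was not tested, and no value is given for *Ctsd*. *Ctsz* had 2 rows, and the higher was used; the other read 1.86 to 5.53 FPKM. *Ctsb*, *Ctsz*, *Lamp1* and *Ctsc* overlap a gene on the opposite strand with a row of its own (*Fdft1*, *Nelfcd*, *Grtp1* and Gm26522), and these read at most 21.5 FPKM.

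Beyond the members, 163 other genes of the lysosome were listed by role, and 147 of them were tested. In Hoxa-flox against WT-GFP 50 were lower, 6 higher and 91 not called, with a median change of -0.28. In Hoxa-del against WT-Cre 52 were lower, 3 higher and 92 not called (median -0.37). Of all genes 13.5% and 14.2% were called lower in these comparisons. With Cre in the floxed or in the WT cells, and for the difference of these changes, 0 of the 147 passed.

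Among other lysosomal proteases 6 of 13 were lower and 1 was higher in Hoxa-flox. *Lgmn*, the asparaginyl endopeptidase legumain that processes cathepsins, averaged 31.9 ± 2.32 FPKM in WT-GFP against 1.17 ± 0.368 in Hoxa-flox (SD, n = 3). *Ctse*, the aspartic protease cathepsin E, averaged 57.6 ± 2.89 and 1.65 ± 1.15, and the collagenolytic *Ctsk* 2.59 ± 0.433 and 0.112 ± 0.121. *Scpep1*, a serine carboxypeptidase, was higher, at 19.5 ± 1.499 against 10.6 ± 0.503. The changes were -3.94, -4.58, -1.69 and 0.81 with adjusted p of 1.42e-07, 1.43e-06, 7.42e-05 and 0.0007 (limma). In Hoxa-del against WT-Cre, which is not independent of the comparison that chose them, the same 4 genes passed in the same directions (-4.85, -4.99, -1.65 and 0.45).

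Among cathepsin inhibitors 4 of 8 were lower and 0 higher. All 4 were stefins, cytosolic inhibitors of cysteine cathepsins with near-identical copies, so reads may be split between their rows. *Stfa1* averaged 461 ± 53.2 FPKM in WT-GFP against 71.9 ± 19.3 in Hoxa-flox, *Stfa2l1* 89.5 ± 6.08 and 5.98 ± 4.19, *Stfa2* 24.2 ± 2.38 and 7.02 ± 5.52 and *Stfa3* 22.2 ± 1.83 and 5.76 ± 4.002. Against WT-Cre, *Stfa1* did not pass (281 ± 290.4 in Hoxa-del against 539 ± 15.3, adjusted p = 0.0648, limma). *Cst3* and *Cstb*, the more broadly expressed cystatins C and B, were named for their role outside the rule. *Cst3* averaged 274 ± 17.1 FPKM in WT-GFP against 334 ± 106 in Hoxa-flox, and *Cstb* 155 ± 6.34 and 144 ± 59.3; neither passed.

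Among hydrolases of sugars, lipids and phosphates 8 of 33 were lower, 2 higher and 23 not called (median -0.12). Calls in either direction were near the 26.8% of all genes. *Arsb*, a sulfatase for dermatan sulfate, averaged 21.1 ± 1.07 FPKM in WT-GFP against 1.91 ± 0.580 in Hoxa-flox, and *Plbd1*, a phospholipase B-like protein, 2.83 ± 0.164 and 0.190 ± 0.165. *Ids*, the iduronate sulfatase, averaged 11.1 ± 1.37 and 3.49 ± 1.17, and *Galc*, the galactosylceramidase, 6.74 ± 0.311 and 2.09 ± 0.729. Of the 4 saposin and lipid transfer genes, *Psap* was lower. It encodes prosaposin, the precursor of activators of sphingolipid breakdown, and averaged 504 ± 33.8 FPKM in WT-GFP against 178 ± 93.7 in Hoxa-flox (change -1.69, adjusted p = 0.0372, limma). *Psap* followed the library sets, at 234 FPKM in the low-Mki67 set and 64.8 in the high-Mki67 set.

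Of 25 other lysosomal membrane genes 10 were lower and 0 higher. *Slc15a3*, a peptide and histidine transporter, averaged 11.8 ± 0.845 FPKM in WT-GFP against 3.0002 ± 0.762 in Hoxa-flox, and *Clcn7*, a chloride and proton exchanger, 34.2 ± 2.49 and 14.1 ± 2.87. *Scarb2*, the sorting receptor of glucocerebrosidase, averaged 16.5 ± 0.755 and 7.04 ± 1.25, and the tetraspanin *Cd63* 127 ± 6.36 and 56.2 ± 8.11. Of 18 genes of the proton pump that acidifies lysosomes 8 were lower and 0 higher. *Atp6v1a*, its catalytic subunit, averaged 120 ± 1.13 and 63.1 ± 12.2 FPKM, *Tcirg1*, a membrane subunit, 187 ± 1.96 and 83.6 ± 23.0, and *Atp6ap2*, an accessory subunit, 98.6 ± 6.94 and 44.2 ± 8.26. *Atp6v0d2*, a subunit variant of osteoclasts and macrophages, averaged 3.95 ± 0.398 FPKM in WT-GFP against 0.00892 ± 0.0154 in Hoxa-flox. The 4 pump genes had changes of -0.93, -1.20, -1.15 and -2.29 in the order given.

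Genes of sorting to the lysosome gave 6 lower and 1 higher of 26, in either direction about the 26.8% called among all genes. *Lyst*, a regulator of lysosome size, averaged 53.5 ± 4.95 FPKM in WT-GFP against 6.36 ± 0.842 in Hoxa-flox. *Gnptg* and *Nagpa*, which build the mannose 6-phosphate tag of lysosomal enzymes, averaged 13.6 ± 1.002 and 6.78 ± 0.914, and 72.3 ± 6.02 and 43.2 ± 3.14. *Igf2r*, a receptor for that tag, was higher, at 12.8 ± 3.97 against 6.80 ± 0.232 (adjusted p = 0.0117, limma), and did not pass against WT-Cre (adjusted p = 0.214). Of 20 transcription factors and nutrient sensing genes 7 were lower and 2 higher. *Tfec* averaged 125 ± 4.14 FPKM in WT-GFP against 70.2 ± 8.42 in Hoxa-flox, *Tfe3* 25.6 ± 4.58 and 11.4 ± 1.28, and *Fnip2*, a partner of folliculin, 22.6 ± 1.93 and 6.46 ± 2.37. *Rragb*, a GTPase of the lysosomal nutrient sensor, was higher (2.40 ± 0.841 against 0.0769 ± 0.0162). It averaged 0.276 FPKM in WT-Cre and reached the filter of 1 FPKM only through the floxed libraries. In reverse, *Ctsk*, *Plbd1* and *Atp6v0d2* averaged under 1 FPKM in both floxed groups and reached it through the WT libraries. The filter itself thus favours the direction of these calls. *Tfeb* and *Mitf* were named for their role outside the rule. *Tfeb* was lower, at 6.05 ± 0.692 against 10.7 ± 1.32 FPKM (change -0.73, adjusted p = 0.00888, limma), and *Mitf* averaged 4.77 ± 0.705 against 8.20 ± 2.18 and did not pass (adjusted p = 0.116). The listed genes named by the rule were chosen by their p in Hoxa-flox against WT-GFP, in a fit whose spread both comparisons share. Passing again in Hoxa-del against WT-Cre is thus not independent of that choice. All of them but *Stfa1* and *Igf2r* also passed there, in the same direction. With Cre in the floxed cells their adjusted p ran from 0.729 to 0.981, and in the WT cells it was 1.0 (limma).

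**Figure D4:**
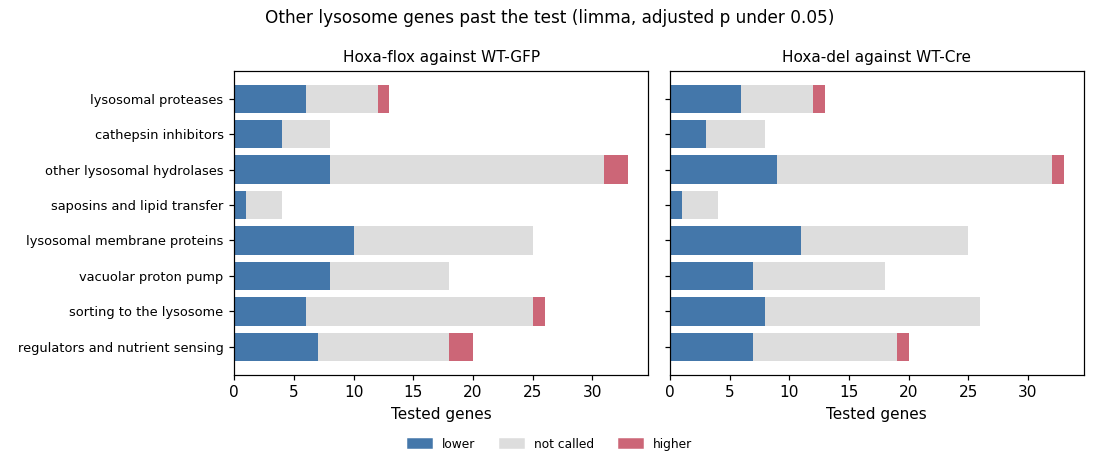
Number of tested genes in each list of other lysosome genes that were lower, not called or higher in 2 comparisons (limma, adjusted p under 0.05). Lower genes outnumber higher genes in every list, from 1 against 0 (saposins) to 10 against 0 (membrane proteins) in Hoxa-flox against WT-GFP.

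Markers of several blood cell types differed between the genotypes as well, in both directions. Of all genes 13.5% were called lower in Hoxa-flox against WT-GFP and 26.8% in either direction. In Hoxa-del against WT-Cre these shares were 14.2% and 27.2%. The counts of the marker lists were not tested against these shares, and several lists are short. Of 10 tested macrophage markers 9 were lower in Hoxa-flox than in WT-GFP. Among these 10, *C1qa*, *C1qb*, *C1qc*, *Mrc1*, *Msr1*, *Mertk* and *Trem2* averaged under 1 FPKM in both floxed groups. They reached the filter of 1 FPKM only through the WT libraries, as did *Fcnb* (late neutrophil) and *Ppbp* (megakaryocyte). For such markers the filter favours lower calls. The 13 macrophage markers summed to 419 to 505 FPKM in WT-GFP and 505 to 517 in WT-Cre, against 51.8 to 107 for Hoxa-flox and 37.4 to 104 for Hoxa-del. *Marco*, at 0.692 FPKM in WT-GFP, was listed at 0 in all 6 floxed libraries, *Mertk* in 5 of the 6, *C1qc* in 4 and *C1qa* in 4, while *Adgre1*, the F4/80 antigen, averaged 79.8 FPKM in Hoxa-flox and 41.5 in WT-GFP. The sum also differed between the sets, at 104 to 107 FPKM in the low-Mki67 and 37.4 to 51.8 in the high-Mki67 libraries. Of 10 late neutrophil markers 7 were lower in Hoxa-flox and 0 were called higher. The means of *Ly6g* (2.48 FPKM in WT-GFP against 19.9 in Hoxa-flox) and *Mmp9* (21.3 against 42.2) went the other way. The 3 tested stem and progenitor markers were higher in Hoxa-flox. The stem and progenitor markers summed to 29.0 to 31.8 FPKM in WT-GFP against 156 to 183 in Hoxa-flox. Of 4 tested primary granule markers 2 were lower in Hoxa-flox and 0 in Hoxa-del against WT-Cre. Of 4 tested monocyte markers 2 were lower and 1 higher in Hoxa-flox (median change -0.997), and 2 were lower and 0 higher in Hoxa-del against WT-Cre. *Fn1* averaged 93.7 FPKM in WT-GFP against 15.1 in Hoxa-flox and *F13a1* 67.0 against 10.6. Going the other way, *Ccr2* averaged 21.3 against 43.5 and *Ly6c2*, which carries most of the list's sum, 404 against 1293. The monocyte sum was 548 to 636 FPKM in WT-GFP. It was 1762 to 1914 in the low-Mki67 and 226 to 643 in the high-Mki67 libraries, so the higher mean of *Ly6c2* was not shared by all Hoxa-flox libraries. Of 3 tested megakaryocyte markers 2 were lower in both comparisons of the genotypes. The megakaryocyte markers summed to 98.5 to 114 FPKM in WT-GFP against 2.12 to 6.11 in Hoxa-flox. In WT-GFP most of the sum came from *Pf4* (mean 93.5). In Hoxa-flox *Pf4* averaged 1.69, below *Gp1ba* at 2.05. The dendritic, the mast and basophil and the erythroid list had 1 tested marker each, and 0 passed in either comparison. The 1 tested osteoclast marker, *Itgb3*, was higher in both. It averaged under 1 FPKM in both WT groups and reached the filter only through the floxed libraries. Markers of B and T cells summed to at most 0.639 FPKM each in every library. The part of these markers in the differences of the members was not tested.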

How the data were processed

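The deposited table has 28042 rows and a column for each of the 12 libraries. The submitters' processing notes list STAR, Cufflinks, Cuffdiff 2.2.2.20150701, GRCm38 and mm10 without saying what each was used for. The deposited values were taken as FPKM made by the authors with Cufflinks, from the tool names in the submitters' processing notes, since their unit is not given in the sources used here. Libraries were stranded and depleted of ribosomal RNA, per the labels' protocols. Of 25263 symbols, 1855 had several rows, of which the highest by mean was used; 70.0% of GENCODE M21 protein-coding symbols had a row.

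All 4 groups entered 1 model in limma 3.58.1 (trend, R 4.3.3), fitted to log2(FPKM + 1). It covered the 13169 symbols that averaged 1 FPKM or more, with Benjamini-Hochberg adjustment over all of them and a threshold of 0.05. Alternatives were a pseudocount of 0.1, no filter, equal upper quartiles, array weights, only the groups compared, the replicate number or the library set as a term, summed rows of a symbol, and each library left out. From each list of other lysosome genes the 4 with the smallest adjusted p among those past the threshold in Hoxa-flox against WT-GFP were named. Members, lists and the library sets were chosen with earlier results of these data known. Tables used Python 3.11.15 and pandas 2.3.3.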

Additional observations from a re-analysis of the deposited data

How the results depend on the processing

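The calls of *Gpnmb*, *Lyz2*, *Ctss* and *Ctsc* in both comparisons between the genotypes held under every alternative tried, and so did those of *Ctsb* and *Ctsl* in Hoxa-del against WT-Cre. Of 648 values for single members, 605 kept direction and side of the threshold, 26 passed only under the alternative, 5 lost the call and 12 changed sign, among genes that had not passed. Leaving out 1 library gave 4 to 5 members called in Hoxa-flox against WT-GFP, 6 to 8 in Hoxa-del against WT-Cre and 0 to 2 in Hoxa-del against Hoxa-flox, and 2405 to 4195, 2552 to 3995 and 2 to 787 genes in all. It gave 0 to 7 genes in all for WT-Cre against WT-GFP and 1 to 5 for the difference of the Cre changes. The 787 came without Hoxa-del 2, against 12 without Hoxa-flox 3 and at most 4 without any other library.

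The estimation of array weights stopped before it converged, so values with these weights are less certain. With them 8 members were called in Hoxa-del against Hoxa-flox and 8 for the difference, and 9186 genes in Hoxa-flox against WT-GFP, 5173 in Hoxa-del against Hoxa-flox, 18 in WT-Cre against WT-GFP and 3452 for the difference; *Lamp1* in Hoxa-flox against WT-GFP turned to 0.0179. Without the filter 7, 5 and 4 genes were called in Hoxa-del against Hoxa-flox, in WT-Cre against WT-GFP and for the difference. A fit of only the groups compared called 1 gene in Hoxa-del against Hoxa-flox and 5 in WT-Cre against WT-GFP; no such fit exists for the difference. With the library set as a term, Hoxa-del against Hoxa-flox gave -0.000376 for *Lamp2* and 0.44 for *Lyz2*, and the difference 0.30 for *Lyz2*. Leaving out 1 library gave -0.0736 to 0.13 for *Lamp2* and -0.67 to 0.46 for *Lyz2* in Hoxa-del against Hoxa-flox, and -0.81 to 0.32 for *Lyz2* in the difference. Unless stated, the cause was not tested.

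The replicate numbers did not pair the libraries: same-numbered libraries had correlations of their deviations of -0.301 to 0.721, and 2 or 3 of 6 libraries in each comparison correlated best with their own number. With the replicate block 5, 6, 0 and 0 members were called in the 4 comparisons of groups, as without it, and 3593, 3635, 3 and 0 genes in all; for the difference 0 members and 1 gene were called. Depth limits low levels most, such as those of *Gpnmb* in the high-Mki67 libraries.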
